A study of Mus musculus with 18 samples.

Results

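The comparison described here set RAW264.7 murine macrophages treated with lipopolysaccharide (LPS) against untreated cells of the same line. It covered 6 of the 18 RNA-seq libraries of the series, 3 control and 3 LPS, and followed 9905 of the 21441 genes of the deposited table, those whose FPKM averaged more than 1 across its 9 macrophage libraries. FPKM is the number of fragments scaled to transcript length and library size, and here appears to have been further scaled between libraries. RAW264.7 is an established macrophage-like line from a virus-induced tumour of a BALB/c mouse, whereas the sample labels give the genotype as wild type and the strain as C57BL/6. The controls are called saline controls in the design text of the series and solvent controls where the study describes its transcriptome. The LPS was from Escherichia coli 0111:B4. The labels of the LPS libraries carry 10 mg/kg, the dose of the accompanying mouse experiment, and the LPS concentration and time of the sequenced cultures are not given in the sources used here. Nothing in the labels says that the libraries of a group came from separate cultures, so p-values measure the spread between libraries, which may be technical. A further 3 macrophage libraries, treated with LPS and moringa isothiocyanate-1 (MIC-1), entered the FPKM filter and the statistical fit. Their spread therefore contributes to every standard error and adjusted p below.

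LPS is carried by Cd14 and Ly96 to the Toll-like receptor Tlr4, which signals through the adaptors Myd88 and Ticam1. The first route activates NF-kB and MAP kinases with AP-1 and drives cytokine and chemokine genes. The second activates interferon regulatory factors and, through secreted interferon, the interferon-induced genes. Macrophages exposed to LPS are known for producing nitric oxide and prostaglandins, changing their fuel use, storing iron and leaving the cell cycle, and inhibitors such as Nfkbia and Tnfaip3, themselves NF-kB targets, later damp the signal.

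The libraries carry no replicate number in the table and are numbered here by their order within each treatment. LPS library 2 went against its label. Over all tested genes it lay closest to control library 2, with a median absolute difference of 0.073 on the log2(FPKM + 0.5) scale, against 0.067 between control libraries 1 and 3, 0.091 between LPS libraries 1 and 3, and 0.695 and 0.696 between LPS library 2 and the other LPS libraries. Among genes with 500 to 2000 estimated reads, the squared difference between LPS library 2 and control library 2 was 2.51 times the counting variance. The same ratio was 2.28 for control libraries 1 and 3, 2.75 for LPS libraries 1 and 3, and 10.5 to 12.1 between control library 2 and the other controls. The 6 libraries thus fell into 3 close pairs, and the middle pair holds 1 library of each label. Values are therefore given first for LPS libraries 1 and 3, called the LPS pair, against the 3 controls and then with all LPS libraries. The study's own macrophage analysis also lists 2 LPS replicates beside 3 controls, without saying which library was left out.

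The macrophage identity of the cells was checked on 16 marker genes. In all, 12 were tested, and Lyz2 (lysozyme), Cd14 (the LPS co-receptor), Tyrobp and Fcer1g (signalling adaptors) and Csf1r (the M-CSF receptor) were each above 100 FPKM in every library. The markers Cd68, Mertk, Mrc1 and Aif1 had no tested row. Of the markers of other cell types, none of 8 fibroblast, 6 endothelial and 5 epithelial genes passed the filter. The T and NK cell list kept 1 of 8 genes (Lck, 3.96 to 5.31 FPKM) and the B cell list 1 of 6, Blnk. The neutrophil list kept 2 of 9, S100a8 and Cxcr2 (0.709 to 1.93 FPKM). Blnk was at 20.9, 27.4 and 21.5 FPKM in the controls, 127 and 126 FPKM in LPS libraries 1 and 3 and 27.2 FPKM in LPS library 2, and was called higher without LPS library 2 (Log2FC 2.43). S100a8 was at 1.46, 2.40 and 1.54 FPKM in the controls, 29.7 and 39.2 FPKM in LPS libraries 1 and 3 and 3.56 FPKM in LPS library 2, and was called higher likewise (Log2FC 3.94). The hepatocyte list kept 5 of 10, and their summed level was 3.89 to 10.2 FPKM in the controls and 22.0, 7.52 and 10.5 FPKM in the LPS libraries 1 to 3 in turn. Their part in the results below was not tested.

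From the steps between low FPKM values the depth was estimated at 23600000 to 25600000 reads per library, an upper estimate because the longest annotated transcript stood for the length of a gene. The FPKM values summed to 557100 to 592800 in the controls and 598300 in LPS library 2, but to 1138000 and 1133000 in LPS libraries 1 and 3. Much of this excess lay in few genes: the 20 most abundant genes held 16.8 to 18.2% of the sum in the controls, 32.1 and 31.5% in LPS libraries 1 and 3, and 18.3% in LPS library 2. With every library rescaled to the same FPKM sum, the median over the tested genes shifted to -0.93 on the log2 scale, from -0.02 as deposited. The median of 16 of the 26 gene lists with a positive median then turned negative. These were the lists with medians of 0.92 or less as deposited, and each is given below with its value after rescaling.

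In LPS libraries 1 and 3 against the controls, 3386 of the 9905 genes were called at an adjusted p below 0.01 and an absolute Log2FC above 1 (limma, Benjamini-Hochberg adjustment), 34.2% of those tested. LPS raised 1610 genes (16.3%) and lowered 1776 (17.9%). These shares are the background for the count of every gene list below. With every library rescaled to the same FPKM sum, 497 were higher and 4577 lower. The FPKM ranges of the 2 LPS and 3 control libraries did not overlap in any of the 3386, so this is not repeated for each gene below. It adds no support to the calls, because ranges were also apart in many genes not called. They were apart in 19 of 21 TLR4 receptor and adaptor genes, of which 8 were called. In 25 of 31 oxidative phosphorylation genes they were apart, with 3 called. The share over all 9905 genes was not counted. The median standard error of a Log2FC was 0.122. LPS raised 162 genes and lowered 93 by more than 8-fold. With LPS library 2 included, 0 genes were called (limma, smallest adjusted p = 0.0777), while 955 higher and 946 lower genes had an unadjusted p below 0.05 and an absolute Log2FC above 1. The median standard error was then 0.229. A value in brackets after a gene name and without a unit is its Log2FC, and each adjusted p is from limma. In a single gene, an exact permutation test, two-sided, cannot go below p = 0.2 with 3 against 2 libraries or p = 0.1 with 3 against 3. The text uses "rose" and "fell" for the calls without LPS library 2.

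**Figure D1:**
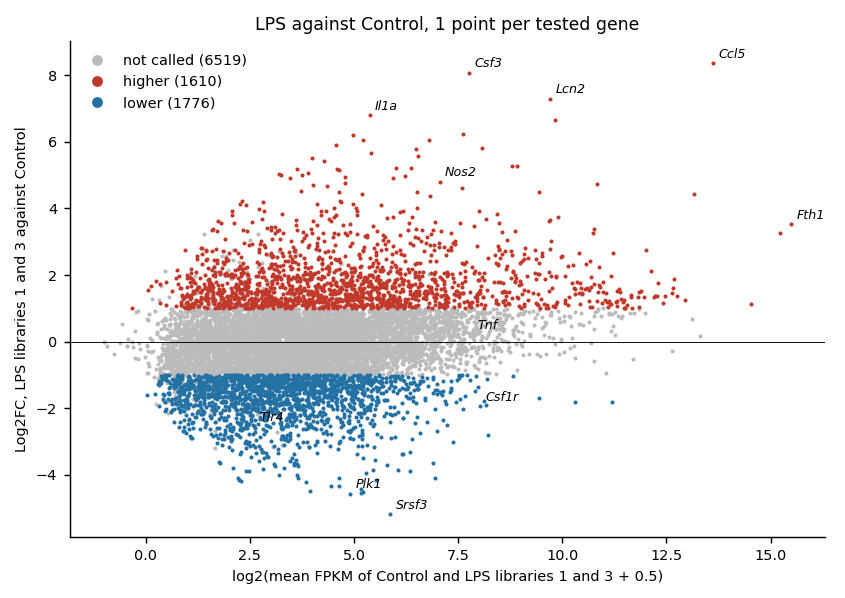
Log2FC of LPS libraries 1 and 3 against the 3 controls (vertical axis) against the log2 mean FPKM of these 5 libraries with 0.5 added (horizontal axis), 1 point per tested gene. The 1610 raised genes are red, the 1776 lowered genes blue and the 6519 others grey, and the raised genes reach both a larger change (Ccl5, 8.37) and a higher level (Fth1) than the lowered ones (Srsf3, -5.18).

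Of the 1610 raised genes, only 15 had LPS library 2 beyond the midpoint between the controls and the other LPS libraries, and of the 1776 lowered genes 7 did. The median difference of LPS library 2 from the mean of control libraries 1 and 3 was 0.21 on the raised genes and -0.13 on the lowered genes. Control library 2 showed 0.18 and -0.13, against 1.64 and -1.57 in LPS libraries 1 and 3. It lay above the mean of the other controls for 78.4% of the raised genes, against 46.7% of all tested genes, and for 24.5% of the lowered genes. LPS library 2 differed from control library 2 by a median of 0.02 on the raised and -0.01 on the lowered genes.

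**Figure D2:**
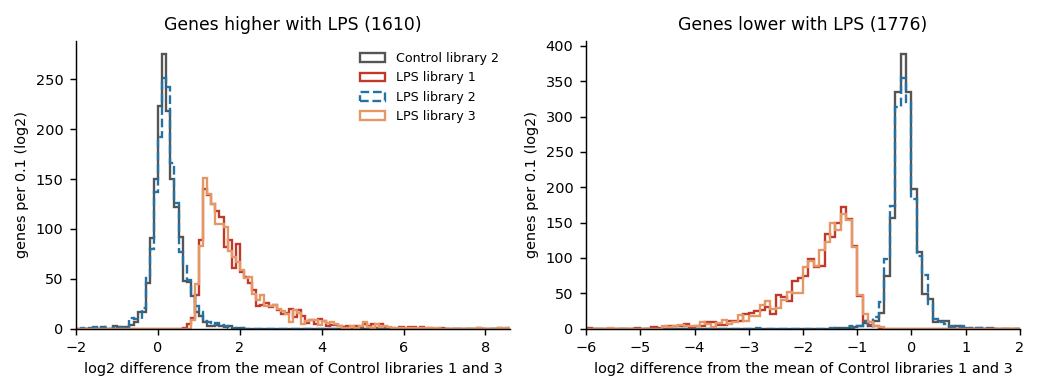
Histograms of the log2 difference of control library 2 and the 3 LPS libraries from the mean of control libraries 1 and 3, in bins of 0.1, for the 1610 genes higher (left) and the 1776 genes lower (right) with LPS. The lines of LPS library 2 (blue, dashed) and control library 2 (grey) lie on each other near 0, while LPS libraries 1 and 3 (red and orange) lie apart from them.

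Csf3, granulocyte colony-stimulating factor (mm9, chr11:98562577-98564943, plus strand), stood at 0.451, 1.77 and 1.35 FPKM in the controls and 426 and 431 FPKM in the LPS pair (Log2FC 8.08, SE 0.31, adjusted p = 1.14e-06). Lcn2, a siderophore-binding protein (chr2:32240153-32243317), went from 5.56, 23.4 and 7.67 to 1661 and 1669.9 FPKM (Log2FC 7.30, SE 0.50, adjusted p = 8.11e-06). LPS library 2 was at 2.08 FPKM for Csf3 and 24.5 FPKM for Lcn2, next to control library 2 in both. The chemokine gene Ccl5 had the largest Log2FC of the named genes, from 46.7, 101 and 90.4 to 24673 and 25371 FPKM (Log2FC 8.37, SE 0.41, adjusted p = 2.27e-06), with 115 FPKM in LPS library 2. As a plain ratio of mean FPKM, Csf3 (360) and Il1a (341) changed more than Ccl5 (315). Il1a, an interleukin-1 ligand (chr2:129125346-129135708), went from 0.115, 0.323 and 0.283 to 84.0 and 79.8 FPKM (Log2FC 6.81, SE 0.87, adjusted p = 0.0002). Pdpn, the membrane glycoprotein podoplanin, went from 3.08, 9.63 and 3.39 to 384 and 394 FPKM (Log2FC 6.23, SE 0.40, adjusted p = 6.43e-06). In these genes the LPS pair was tight and the controls were spread, with control library 2 the highest control in all 5. Others in the top 12 were Serpinb2, an inhibitor of plasminogen activators (6.07), Il1b (6.05), Hamp, the iron hormone hepcidin (5.89), Slpi, a secreted protease inhibitor (5.81), Upp1, uridine phosphorylase (5.66), and the paired heat shock genes Hspa1a (6.21) and Hspa1b (5.79). With all LPS libraries the Log2FC of Csf3, Lcn2, Ccl5, Il1a and Pdpn was 5.62, 5.28, 5.78, 4.64 and 4.46, each with an adjusted p of 0.0777 (limma). A further 18 raised genes and 5 lowered genes were microRNA, small nucleolar and other small RNA genes, whose FPKM rests on very short transcripts.

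The promoters of the 3 named genes with the largest Log2FC and an entry in the RefSeq table (GRCm38.p6, 250 bases before to 50 after the start, 5′ to 3′ on the strand of the gene) are shown with matches to 9 short motifs in capitals. Lcn2 lies at chr2:32387690-32387989, Il1a at chr2:129309923-129310222 and Pdpn at chr4:143299515-143299814, each on the minus strand.
Lcn2: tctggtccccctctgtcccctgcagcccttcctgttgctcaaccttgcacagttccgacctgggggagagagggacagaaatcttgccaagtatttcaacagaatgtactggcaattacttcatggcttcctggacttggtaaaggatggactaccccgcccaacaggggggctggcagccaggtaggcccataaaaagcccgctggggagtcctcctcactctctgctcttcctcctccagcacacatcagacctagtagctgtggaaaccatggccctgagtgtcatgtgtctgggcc
Il1a: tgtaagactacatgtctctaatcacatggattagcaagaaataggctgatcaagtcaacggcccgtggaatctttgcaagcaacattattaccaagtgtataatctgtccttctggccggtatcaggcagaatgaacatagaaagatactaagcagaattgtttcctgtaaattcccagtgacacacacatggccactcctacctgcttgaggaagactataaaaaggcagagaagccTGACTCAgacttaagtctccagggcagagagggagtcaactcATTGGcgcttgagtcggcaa
Pdpn: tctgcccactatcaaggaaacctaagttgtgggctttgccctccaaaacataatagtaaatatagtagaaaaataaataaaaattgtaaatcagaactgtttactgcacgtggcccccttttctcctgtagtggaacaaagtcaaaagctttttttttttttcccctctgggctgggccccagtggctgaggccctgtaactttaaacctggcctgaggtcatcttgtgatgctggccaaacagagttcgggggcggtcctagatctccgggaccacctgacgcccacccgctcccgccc
The capitals in Il1a are TGACTCA, a match to the AP-1 motif TGANTCA at positions -12 to -6 from the start, and ATTGG, the reverse complement of the NF-Y motif CCAAT, at 30 to 34. The promoters of Lcn2 and Pdpn held none of the 9 motifs in this window. Each motif was searched as a fixed pattern of letters, so sites with other letters would be missed. The NF-kB motif searched, on both strands, is in 1.62% of all 27025 promoters of the table, AP-1 letters in 7.93% and CCAAT in 37.9%.

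Of 18 tested cytokine genes 10 rose and none fell, with a median Log2FC of 2.20 (1.71 with all LPS libraries), against -0.02 over all genes. Il1b, the secreted form processed by caspase-1, was at 2.00, 5.83 and 1.84 FPKM in the controls and 214 and 227 FPKM in the LPS pair (Log2FC 6.05, SE 0.89, adjusted p = 0.000443). Il1rn, the receptor antagonist that blocks both ligands, reached 1337 and 1322 FPKM from 45.1, 92.4 and 49.0 FPKM (Log2FC 4.48, SE 0.29, adjusted p = 6.94e-06), and was the most abundant cytokine message with LPS. Il1f9 (interleukin-36 gamma) also rose (2.45). All of these lay in LPS library 2 within 1 FPKM of control library 2 or, for Il1rn, at 93.9 against 92.4 FPKM. Il6, a driver of the acute phase, was 0, 0.139 and 0 FPKM in the controls and 5.45 and 6.37 FPKM in the LPS pair (Log2FC 3.56, SE 0.53, adjusted p = 0.000475), a low level beside its neighbours. The interleukin-6 relatives Lif (4.02), Osm (2.62) and Il27 (4.11) rose. Tnf, the classical early cytokine, behaved differently. It was at 165, 330.1 and 163 FPKM in the controls and at 238 and 238 FPKM in the LPS pair (Log2FC 0.20, SE 0.28, adjusted p = 0.531), inside the range of the controls, with 344 FPKM in LPS library 2. The anti-inflammatory Il10 (2.48, 3.00 and 2.58 against 3.09 and 3.49 FPKM, adjusted p = 0.597) was not called, and Tgfb1 missed the fold threshold at 0.96. Il12a, Tnfsf15 and Ifnb1 did not pass the filter, and no row was matched to Il12b.

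Chemokine genes had the highest median of the lists, 3.40 (2.42 with all LPS libraries), with 10 of 14 tested members raised and 1 lowered. The monocyte attractant Ccl2 went from 101, 203 and 109.7 to 3590.0 and 3398 FPKM (Log2FC 4.73, SE 0.31, adjusted p = 6.52e-06) and Ccl3 from 675, 1076 and 733 to 17876 and 17425 FPKM (Log2FC 4.44, SE 0.19, adjusted p = 1.4e-06). Ccl4, the neighbour and close relative of Ccl3, was at 353, 510.3 and 338 FPKM in the controls and 492 and 496 FPKM in the LPS pair (Log2FC 0.33, SE 0.17, adjusted p = 0.113) and was not called. The neutrophil attractants Cxcl2 (3.65) and Cxcl3 (4.93) rose, as did Ccl7 (4.51), Ccl22 (4.09), Ccl9 (2.58) and Cxcl16 (3.13). The ligands of the receptor Cxcr3 moved apart. Cxcl11 rose from 4.09, 4.78 and 3.54 to 40.3 and 40.2 FPKM (Log2FC 3.14, SE 0.19, adjusted p = 4.65e-06), while Cxcl10 fell from 64.5, 70.1 and 64.3 to 25.1 and 25.7 FPKM (Log2FC -1.37, SE 0.16, adjusted p = 0.000133). LPS library 2 was at 4.91 FPKM for Cxcl11 and 71.6 FPKM for Cxcl10, both beside the controls. The third ligand, Cxcl9, did not pass the filter.

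**Figure D3:**
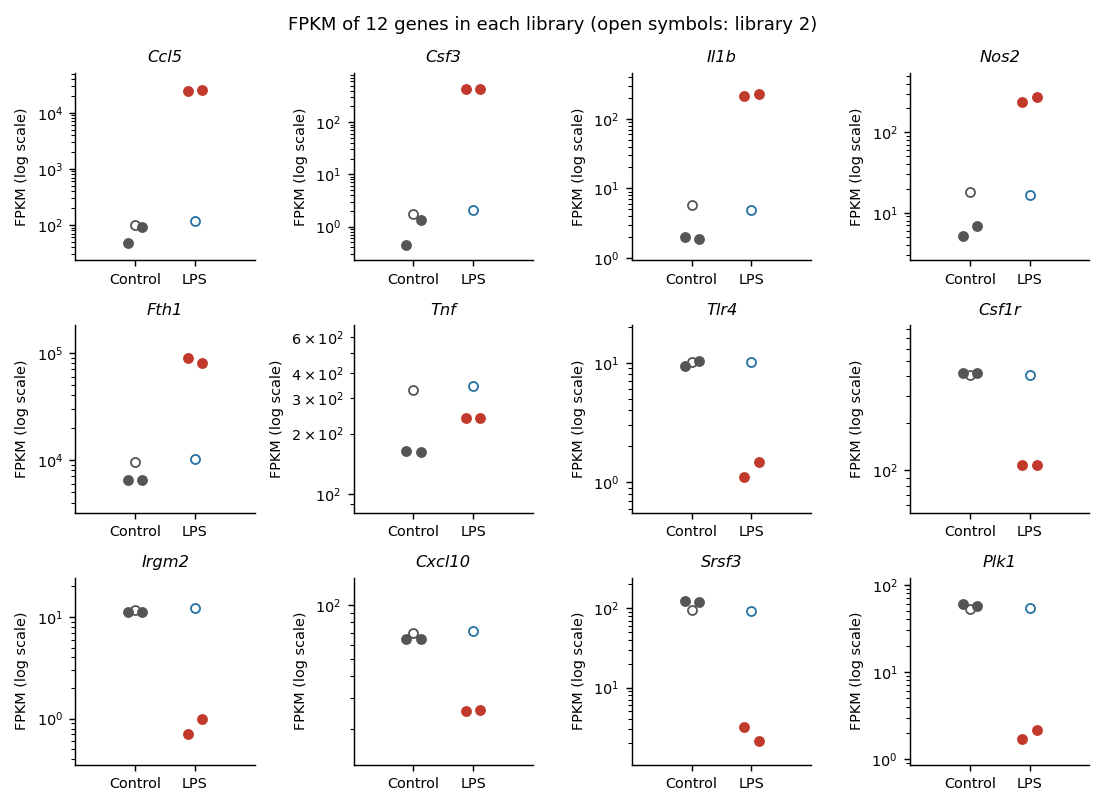
FPKM on a log scale for 12 genes, 1 point per library, controls on the left and LPS on the right of each panel, with library 2 of each treatment as an open symbol and the other LPS libraries in red. In every panel the open LPS symbol lies beside the controls, and in Tnf the filled LPS points lie between the controls.

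Enzymes that make inflammatory mediators rose in 10 of 15 tested cases and fell in 1, with a median Log2FC of 1.69 (1.35 with all LPS libraries). Nos2, inducible nitric oxide synthase (mm9, chr11:78734289-78773756, plus strand), went from 5.12, 17.9 and 6.93 to 239.9 and 271 FPKM (Log2FC 4.80, SE 0.48, adjusted p = 5.29e-05). The arginine importer Slc7a2 (4.21), argininosuccinate synthase Ass1 (1.44), the arginase Arg2 (2.79) and Gch1, which makes the cofactor of the synthase (1.27), rose with it. Ptgs2 (cyclooxygenase-2) went from 29.2, 31.2 and 33.8 to 478 and 487 FPKM (Log2FC 3.92, SE 0.17, adjusted p = 1.51e-06) and Ptges, the prostaglandin E synthase downstream of it, from 1.62, 1.96 and 1.40 to 48.8 and 46.3 FPKM (Log2FC 4.48, SE 0.12, adjusted p = 4.4e-07). Pla2g4a, the phospholipase that frees arachidonic acid, fell from 93.8, 76.4 and 99.0 to 31.1 and 32.0 FPKM (Log2FC -1.48, SE 0.11, adjusted p = 1.1e-05), the member against the direction of the list. Alox5ap, the most abundant member in the controls, was not called (0.65). Irg1, which makes itaconate, rose (2.60) from controls of which library 2 was the highest (82.6, 266 and 84.7 FPKM), with 734 and 763 FPKM in the LPS pair and 256 FPKM in LPS library 2.

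Antimicrobial and acute-phase genes rose in 11 of 20 tested cases and none fell (median 1.45, and 1.10 with all LPS libraries). After Lcn2 and Serpinb2 the largest changes were in Slpi (6.33, 13.7 and 8.18 to 540.2 and 517 FPKM), the gelatinase Mmp9 (5.91, 26.0 and 5.92 to 215 and 210.1 FPKM, Log2FC 4.37, SE 0.62, adjusted p = 0.000361) and the serum amyloid gene Saa3 (97.7, 193 and 93.1 to 1477 and 1525 FPKM, Log2FC 3.63, SE 0.46, adjusted p = 0.000195). The C-type lectins Clec4e, a sensor of mycobacterial glycolipid, and Clec4d rose by 2.34 and 2.03. Lyz2 (lysozyme), the most abundant member at 9171, 10699 and 8928 FPKM in the controls, was at 10559.7 and 10746 FPKM in the LPS pair and not called (adjusted p = 0.148). Complement C3 (1.31, adjusted p = 0.0188) and Cfb (2.03, adjusted p = 0.0201) missed the p-value threshold.

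Of the 21 genes for the LPS receptor complex, related receptors and adaptors, 3 rose and 5 fell. Among all tested genes 16.3% were higher and 17.9% lower. The median of the list was 0.05 (-0.86 after rescaling to the same sum, -0.08 with all LPS libraries). The 5 that fell were 4 Toll-like receptors and a shared adaptor. Tlr4 itself was at 9.34, 10.1 and 10.3 FPKM in the controls and 1.11 and 1.48 FPKM in the LPS pair (Log2FC -2.54, SE 0.11, adjusted p = 1.38e-06). Tlr2, the receptor for lipopeptides, went from 57.8, 57.6 and 55.5 to 14.0 and 14.8 FPKM (Log2FC -1.95, SE 0.07, adjusted p = 1.08e-06), and the nucleic acid receptors Tlr7 (-1.98) and Tlr13 (-2.38) and the adaptor Myd88 (-1.09) also fell. LPS library 2 was at 10.1 FPKM for Tlr4 and 54.2 FPKM for Tlr2, the first inside the control range and the second just below it. Ly96, the LPS-binding partner of Tlr4 (1.35), Ticam1, the adaptor of the interferon route (2.20), and the kinase Irak2 (2.92) rose. With the trend in transcript length removed, Ly96 and Myd88 were no longer called. Cd14 was at 1481, 1585 and 1469.5 FPKM in the controls and 1891 and 2006 FPKM in the LPS pair (Log2FC 0.37, SE 0.14, adjusted p = 0.0492) and was not called.

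Of 9 tested NF-kB subunits and kinases 2 were called, beside 34.2% of all genes. Rel rose (1.21) and the kinase Ikbkb fell (-1.06), with a median of 0.33 (-0.63 after rescaling). With the trend in transcript length removed Ikbkb was not called, and Nfkb2 was. Nfkb1 (-0.02) and Nfkb2 (0.98), the most abundant members over the 6 libraries, were not called as deposited. Rela, the main transactivating subunit, was at 30.5, 30.7 and 29.3 FPKM in the controls and 21.3 and 19.8 FPKM in the LPS pair (-0.54), under the fold threshold. Feedback inhibitors rose in 8 of 19 cases and fell in 2 (median 0.78, -0.13 after rescaling), and with libraries 1 and 3 of each treatment averaged as 1 sample, 3 rose and 2 fell. Nfkbia, which holds NF-kB in the cytoplasm, went from 112, 192 and 115 to 346 and 342 FPKM (Log2FC 1.34, SE 0.29, adjusted p = 0.00356), with 187 FPKM in LPS library 2, between the controls. Tnfaip3 and its partner Tnip1, which edit and bind ubiquitin chains, rose by 2.18 and 2.13, and Tollip by 1.89. Dusp2 (-2.35) and Tnip3 (-1.82) fell, whereas the related phosphatase Dusp1 rose (1.77). The mRNA decay factor Zfp36, the most abundant of the list, was at 299, 412 and 292 FPKM in the controls and 369.6 and 352 FPKM in the LPS pair and not called.

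Of 14 immediate-early transcription factor genes, 5 rose and none fell (median 0.72, -0.17 after rescaling), beside 16.3% higher and 17.9% lower among all tested genes. Atf3, a stress-induced repressor of inflammatory genes, went from 54.4, 69.3 and 54.3 to 443 and 427 FPKM (Log2FC 2.87, SE 0.12, adjusted p = 1.39e-06). Maff (3.35), Myc (3.27), Jund (2.08) and Jun (1.22) rose as well. The classical early members Fos (103, 144 and 103 against 139 and 145 FPKM), Egr1 (54.2, 98.9 and 56.7 against 108 and 109 FPKM) and Junb (269, 376 and 258 against 182 and 169 FPKM) were not called. In each of these 3 genes control library 2 was the highest control.

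Of 35 tested interferon-induced genes 7 rose and 9 fell, beside 16.3% higher and 17.9% lower among all tested genes, and the median was -0.56 (-0.26 with all LPS libraries, -1.53 after rescaling). Rsad2 (viperin), an antiviral radical enzyme, went from 10.3, 17.0 and 11.1 to 79.0 and 77.0 FPKM (Log2FC 2.60, SE 0.24, adjusted p = 3.13e-05), and Irf7, the regulator of the interferon response, from 292, 388 and 317 to 1211 and 1198 FPKM (Log2FC 1.87, SE 0.25, adjusted p = 0.000263). Isg20, Irf8, the tethering factor Bst2, Xaf1 and the nucleic acid sensor Zbp1 rose by 1.80, 1.73, 1.43, 1.41 and 1.24. The genes that fell included Cmpk2, the neighbour of Rsad2 in the genome (27.4, 34.6 and 28.3 to 3.00 and 3.74 FPKM, Log2FC -2.98, SE 0.34, adjusted p = 0.000109), Ifi44 (234, 222 and 243 to 45.8 and 44.7 FPKM, Log2FC -2.35, SE 0.10, adjusted p = 1.56e-06), Ifit2 (-1.82), Irf1 (-1.44), Trim21 (-1.76), Trim30a (-1.63), Parp14 (-1.46), Adar (-1.33) and Rtp4 (-1.10). The ubiquitin-like Isg15 was at 253, 307 and 229 FPKM in the controls and 268 and 262 FPKM in the LPS pair and was not called. With libraries 1 and 3 of each treatment averaged as 1 sample, 3 members were called higher and 8 lower.

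The guanylate-binding proteins and immunity-related GTPases, which attack the vacuoles of intracellular microbes, were mostly lower. Of 13 tested, 8 fell and 1 rose, with a median of -1.58 (-0.99 with all LPS libraries). Irgm2 went from 11.2, 11.7 and 11.3 to 0.705 and 1.00 FPKM (Log2FC -3.15, SE 0.24, adjusted p = 1.46e-05) and Irgm1 from 51.1, 50.2 and 50.4 to 12.1 and 12.0 FPKM (Log2FC -2.03, SE 0.14, adjusted p = 9.36e-06), with 12.2 and 49.4 FPKM in LPS library 2. Ifi47 (-3.34), Tgtp2 (-2.14), Iigp1 (-1.88), Igtp (-1.71), Gm4951 (-1.58) and Gbp9 (-1.08) fell as well. For Ifi47 LPS library 1 is listed at 0, and LPS library 2 (6.55 FPKM) lay below the controls (12.1, 12.0 and 13.1 FPKM). Gbp2 was the exception, from 2.31, 4.47 and 1.79 to 15.1 and 14.4 FPKM (Log2FC 2.27, SE 0.56, adjusted p = 0.00661). With libraries 1 and 3 of each treatment averaged as 1 sample, 3 members were called lower and 0 higher. Several of these genes are close paralogs whose reads the authors' pseudoalignment could have split in different ways.

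The promoter of Cxcl10 is shown because this chemokine gene is a textbook target of both NF-kB and interferon signals. It lies at chr5:92348840-92349139 of GRCm38.p6, minus strand.
Cxcl10: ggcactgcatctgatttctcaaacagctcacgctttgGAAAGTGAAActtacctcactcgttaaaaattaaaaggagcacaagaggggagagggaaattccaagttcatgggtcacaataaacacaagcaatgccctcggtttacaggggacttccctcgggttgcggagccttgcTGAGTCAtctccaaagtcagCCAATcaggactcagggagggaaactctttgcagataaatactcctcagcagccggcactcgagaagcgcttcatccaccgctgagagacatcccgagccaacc
The first capitals, GAAAGTGAAA at -213 to -204 from the start, match the interferon-stimulated response element on the reverse strand. TGAGTCA at -74 to -68 matches AP-1, and CCAAT at -54 to -50 matches NF-Y. The NF-kB letters searched had no match in this window. NF-kB sites with other letters were not searched, so the lack of a match does not show that such sites are absent. The interferon-stimulated response element is in 3.49% of all promoters of the table.

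Genes of MHC class I presentation rose in 6 of 16 cases with none lower (median 0.75, -0.24 after rescaling). Among all tested genes 16.3% were higher and 17.9% lower. The 6 were the heavy chains H2-D1 (605, 812 and 565 to 3231 and 2966 FPKM, Log2FC 2.25, SE 0.18, adjusted p = 1.5e-05), H2-K1 (1.91), H2-Q7 (1.66), H2-M3 (1.27) and H2-T23 (1.00) and the light chain B2m (2654, 3105 and 2746 to 10168 and 10655 FPKM, Log2FC 1.88, SE 0.14, adjusted p = 1.07e-05). The peptide transporter Tap1 (0.81, adjusted p = 0.0184) and the immunoproteasome subunits Psmb8 (-0.13) and Psmb9 (-0.38) were not called. The heavy chain genes are near-identical in parts, so the split of reads between them is uncertain. Of the class II and co-stimulation list 7 of 15 genes were not tested, among them the class II chains H2-Aa, H2-Ab1 and H2-Eb1 and their regulator Ciita. Of the 8 tested, 5 rose and 1 fell (median 2.30). Cd274, the ligand of the inhibitory receptor PD-1, went from 2.74, 6.37 and 3.16 to 161 and 161 FPKM (Log2FC 5.22, SE 0.40, adjusted p = 1.32e-05). Cd80 (2.57, 5.75 and 2.44 to 61.2 and 62.0 FPKM, 4.02) and Cd86 (1.15, 2.05 and 0.878 to 23.2 and 20.9 FPKM, 3.65), the ligands of CD28, rose, as did Cd40 (2.78) and the invariant chain Cd74 (1.81). The adhesion molecule Icam1 fell from 66.1, 67.7 and 65.8 to 18.0 and 17.5 FPKM (Log2FC -1.88, SE 0.06, adjusted p = 5.67e-07). For all of these named genes LPS library 2 was closer to the controls than to the other LPS libraries.

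Receptors for cytokines and chemokines moved in both directions, 8 of 19 higher and 4 lower (median 0.64, -0.35 after rescaling). Tnfrsf1b, the second receptor for TNF, went from 11.5, 21.8 and 12.2 to 368 and 367 FPKM (Log2FC 4.61, SE 0.29, adjusted p = 5.79e-06), while Tnfrsf1a was at 56.4, 55.7 and 53.4 and 35.3 and 32.8 FPKM (-0.69), under the fold threshold. Both chains of the type I interferon receptor rose, Ifnar2 by 1.94 and Ifnar1 by 1.19. Of the interferon-gamma receptor, Ifngr1 fell (-1.51) and Ifngr2 was not called (0.64). Csf1r, on which macrophage survival depends, fell from 423, 406 and 419 to 109 and 108 FPKM (Log2FC -1.94, SE 0.17, adjusted p = 2.94e-05), with 409 FPKM in LPS library 2. The fractalkine receptor Cx3cr1 (-2.29) and Il6ra (-1.98) fell, and Ccrl2 (4.12), Cxcr4 (2.44) and Il4ra (2.35) rose.

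Of 18 tested macrophage surface genes 8 rose and 2 fell (median 0.92, -0.06 after rescaling). Emr1, which encodes the F4/80 antigen, went from 37.7, 42.3 and 37.2 to 278 and 290.0 FPKM (Log2FC 2.85, SE 0.22, adjusted p = 1.37e-05). The fungal lectins Clec4n (3.80) and Clec7a (3.11) and the integrin chain Itgb2 (2.37) and the activation marker Cd83 (2.30) rose. Itga4, the integrin chain that binds Vcam1, fell from 85.7, 67.5 and 91.8 to 11.3 and 11.5 FPKM (Log2FC -2.78, SE 0.13, adjusted p = 1.69e-06), and Cd300a, an inhibitory receptor, also fell (-1.24). With libraries 1 and 3 of each treatment averaged as 1 sample, 5 surface genes were higher and 1 lower. Trem2, a lipid receptor and the most abundant of them in the controls, was not called (-0.20). Among the 12 tested macrophage markers 6 rose and 1, Csf1r, fell.

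Genes of inflammasomes and cell death rose in 8 of 25 cases and fell in 1 (median 0.71, -0.27 after rescaling). In total 9 members were called, a share near the 34.2% of all tested genes. Survival genes made up most of the raised set, with Bcl2l1 (19.8, 24.0 and 17.1 to 134 and 115 FPKM, Log2FC 2.60, SE 0.15, adjusted p = 3.86e-06), Mcl1 (1.86), Bcl2 (1.27), Birc2 (1.78) and the near-identical paralogs Bcl2a1b (2.04) and Bcl2a1d (1.69). The pro-apoptotic Bbc3 (1.85) and the kinase Ripk2 (2.76) also rose. Other survival genes of the list were not called, some of them with a negative Log2FC. Ripk3, the kinase of necroptosis, fell from 47.7, 48.4 and 50.2 to 15.1 and 15.1 FPKM (Log2FC -1.66, SE 0.09, adjusted p = 3.19e-06). The most abundant death gene, Bax, was at 419, 432 and 396 FPKM in the controls and 492 and 489.8 FPKM in the LPS pair and not called. Nlrp3, the inflammasome sensor, ranged from 0 to 0.768 FPKM in the LPS libraries and from 1.25 to 2.55 FPKM in the controls (adjusted p = 0.141).

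Of 32 mitosis genes 31 fell and none rose, with a median of -3.24 (-2.21 with all LPS libraries), against 17.9% lowered among all tested genes. Plk1, the polo-like kinase that drives mitotic entry (mm9, chr7:129302951-129313389, plus strand), went from 60.5, 53.3 and 57.9 to 1.72 and 2.14 FPKM (Log2FC -4.57, SE 0.28, adjusted p = 5.47e-06). Cdc20, the activator of the anaphase-promoting complex (chr4:118105506-118109957), went from 73.0, 65.5 and 68.4 to 2.43 and 2.53 FPKM (Log2FC -4.54, SE 0.38, adjusted p = 1.95e-05). The mitotic cyclins Ccnb2 (-4.53), Ccna2 (-4.43) and Ccnb1 (-3.49) and the kinase they activate, Cdk1 (-2.71), fell. LPS library 2 was at 54.2 FPKM for Plk1, 62.7 FPKM for Cdc20 and 70.0 FPKM for Ccnb2, all near the controls. The proliferation marker Mki67 (-2.97) and the abundant Birc5 (survivin, -3.37) fell too. The most abundant member in the controls, Ube2c, the ubiquitin-conjugating enzyme of the same complex, went from 232, 232 and 228 to 12.2 and 13.8 FPKM (Log2FC -4.10, SE 0.32, adjusted p = 1.42e-05). Aurka was the member not called (6.08, 2.21 and 6.26 against 1.23 and 0 FPKM, adjusted p = 0.0216), with 1 LPS library listed at 0. Among the other genes in the 12 largest falls were the mitotic kinase gene Pbk (-4.35), the microtubule depolymerase Kif2c (-4.21), Fam64a (-4.34) and 2810417H13Rik (-4.17), which encodes the PCNA-associated factor. D1Ertd622e was at 31.8, 24.4 and 29.6 FPKM in the controls and 0 and 2.84 FPKM in the LPS pair. Ppp3cb and Arhgap27 are listed at 0 in the LPS pair, against 7.42, 8.43 and 10.5 and 7.53, 8.89 and 8.71 FPKM in the controls.

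DNA replication and G1/S genes fell in 31 of 36 cases and none rose (median -2.19, and -1.53 with all LPS libraries). The replicative helicase fell in all its tested subunits, Mcm2 to Mcm7, between -2.58 and -3.86, for example Mcm7 from 89.1, 69.9 and 86.5 to 5.39 and 4.91 FPKM (Log2FC -3.86, SE 0.20, adjusted p = 2.77e-06). Cdc6, which loads the helicase, had the largest fall of the list (10.8, 8.48 and 10.7 to 0.226 and 0.197 FPKM, Log2FC -3.88, SE 0.26, adjusted p = 7.23e-06). The nucleotide supply genes Rrm2 (-3.85), Tk1 (-3.70) and Tyms (-1.83) fell as well. Pcna, the sliding clamp and most abundant member, was at 452, 445 and 453 FPKM in the controls and 227 and 229 FPKM in the LPS pair and missed the fold threshold (Log2FC -0.98, SE 0.11, adjusted p = 0.000114). Cdk4, the kinase of the D-type cyclins, fell (-1.12), as did the G1/S cyclin Ccne1 (-1.27), whereas the D-type cyclins Ccnd1 (-0.67), Ccnd2 (0.23) and Ccnd3 (0.67) were not called. Of 15 CDK inhibitors and p53 targets 8 rose and 2 fell (median 1.44). The growth-arrest gene Gadd45b went from 21.1, 29.9 and 21.5 to 946 and 948 FPKM (Log2FC 5.28, SE 0.17, adjusted p = 6.06e-07), Cdkn1a (p21) from 193, 240.0 and 187 to 748 and 690.0 FPKM (Log2FC 1.80, SE 0.14, adjusted p = 1.34e-05), and Gadd45g (2.72), Cdkn2c (2.48) and Mdm2, an inhibitor of p53 (1.85), rose, whereas Trp53 itself fell from 162, 151 and 164 to 51.0 and 47.0 FPKM (Log2FC -1.69, SE 0.11, adjusted p = 5.85e-06), as did Sesn1 (-1.11). The fall of the cycle genes is a change per library, in which fewer dividing cells and less RNA per cell cannot be told apart.

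The promoters of the 3 named genes with the most negative Log2FC are shown to compare the letters they share. On GRCm38.p6 Srsf3 lies at chr17:29032410-29032709 (plus strand), Plk1 at chr7:122159185-122159484 (plus) and Cdc20 at chr4:118437294-118437593 (minus).
Srsf3: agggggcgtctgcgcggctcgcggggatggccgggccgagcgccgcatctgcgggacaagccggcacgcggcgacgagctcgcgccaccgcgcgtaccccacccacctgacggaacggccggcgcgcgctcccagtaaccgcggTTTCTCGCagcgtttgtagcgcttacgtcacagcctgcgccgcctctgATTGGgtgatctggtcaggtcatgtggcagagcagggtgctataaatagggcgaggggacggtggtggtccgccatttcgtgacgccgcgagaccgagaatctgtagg
Plk1: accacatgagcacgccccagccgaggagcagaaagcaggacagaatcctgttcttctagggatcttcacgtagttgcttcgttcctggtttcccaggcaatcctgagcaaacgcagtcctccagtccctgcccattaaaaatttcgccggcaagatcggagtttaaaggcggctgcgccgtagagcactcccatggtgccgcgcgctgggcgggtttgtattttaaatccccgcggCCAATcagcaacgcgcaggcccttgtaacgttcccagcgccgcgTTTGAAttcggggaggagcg
Cdc20: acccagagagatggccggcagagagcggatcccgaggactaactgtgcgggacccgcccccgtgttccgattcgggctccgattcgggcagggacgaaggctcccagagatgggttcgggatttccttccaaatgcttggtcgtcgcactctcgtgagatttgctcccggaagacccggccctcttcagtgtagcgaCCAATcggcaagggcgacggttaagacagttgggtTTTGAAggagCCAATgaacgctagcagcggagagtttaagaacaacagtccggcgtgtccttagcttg
Plk1 and Cdc20 hold both CCAAT, the NF-Y motif, and TTTGAA, the letters of the cell cycle homology region, at -14 to -10 and 30 to 35 in Plk1 and, for Cdc20, at -53 to -49, -8 to -4 and -18 to -13. Srsf3 holds TTTCTCGC, a match to the E2F letters TTTNNCGC, at -106 to -99 and ATTGG at -58 to -54. Promoters were matched for 27 of the 32 tested mitosis genes and 29 of the 36 tested replication genes. CCAAT was in 77.8% of the mitosis and 58.6% of the replication promoters, against 37.9% of all promoters. TTTGAA was in 70.4% and 10.3%, against 18.1%, and the E2F letters in 7.41% and 44.8%, against 5.27%. Among tested genes, 79.8% of which were matched, the shares of the NF-Y, cell cycle homology and E2F letters were 39.6%, 12.2% and 9.40%, and over the 1442 lowered genes with a promoter 44.0%, 16.2% and 13.5%. Both strands were searched, no match overlapped another in these 3 promoters, and a match is a description of letters, not of binding. For the raised genes and the interferon and GTPase lists, a smaller part of members had a promoter than the 79.8% of all tested genes. No share is given for these sets.

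Splicing factors of the SR family and their partners fell in 10 of 17 cases and rose in 2 (median -1.14, and -0.88 with all LPS libraries). Srsf3 (mm9, chr17:29169618-29180311, plus strand) had the most negative Log2FC of the named genes, from 122, 95.9 and 122 to 3.18 and 2.12 FPKM (Log2FC -5.18, SE 0.31, adjusted p = 4.91e-06), with 91.9 FPKM in LPS library 2. Srsf7 (76.5, 63.2 and 75.9 to 11.1 and 16.2 FPKM, Log2FC -2.37, SE 0.21, adjusted p = 2.62e-05), Tra2b (-2.27), Srsf6 (-2.23), Srsf2 (-1.01) and the abundant Hnrnpa2b1 (-1.89) and Hnrnpa1 (-1.14) also fell. The 2 members that rose were Clk4, from 1.46, 1.99 and 2.59 to 20.1 and 19.0 FPKM (Log2FC 3.02, SE 0.19, adjusted p = 6.27e-06), and Clk1 (1.26), kinases that phosphorylate SR proteins. Srsf11 (0.77) was positive but under the fold threshold. These values are gene totals and hold nothing on isoforms.

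**Figure D4:**
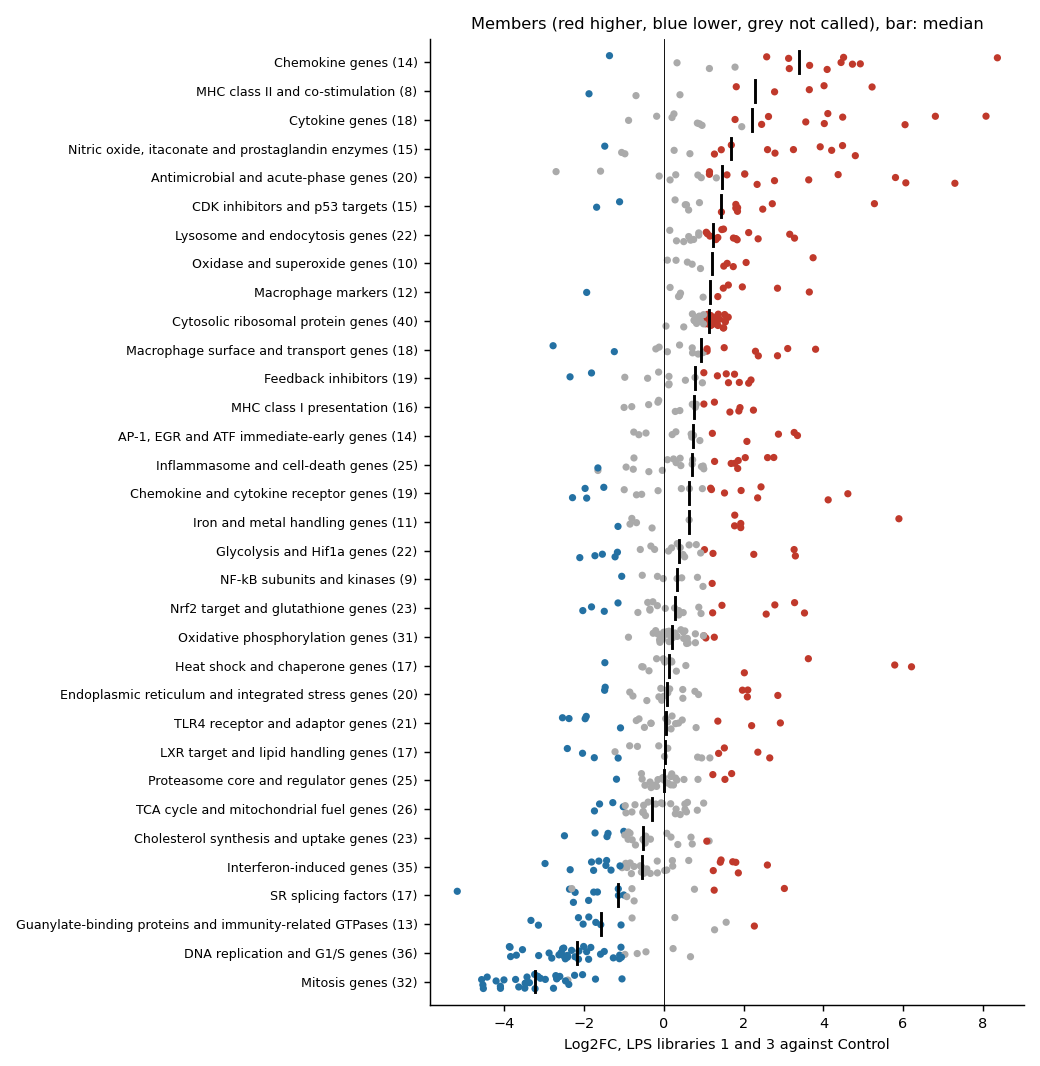
Log2FC of LPS libraries 1 and 3 against the controls for the tested members of 33 gene lists, with the number tested in brackets, red for members called higher, blue for lower and grey for not called, and a bar at the median of each list. Chemokine genes lie at the top (median 3.40) and mitosis genes at the bottom (median -3.24), where all points are below 0.

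Heat shock genes showed a change in few members, 4 of 17 raised and 1 lowered (median 0.13, -0.83 after rescaling). The shares among all tested genes were 16.3% higher and 17.9% lower. Hspa1a and Hspa1b, near-identical neighbours whose reads could be split between them, summed to 2.17, 3.96 and 3.19 FPKM in the controls, 239 and 236 FPKM in the LPS pair and 3.90 FPKM in LPS library 2. Hspb1 is listed at 0 in all controls and in LPS library 2, and at 5.37 and 5.96 FPKM in the LPS pair, and Hspa4l rose (2.02). The constitutive Hspa8 (2072, 1993 and 2092 against 2545 and 2549.7 FPKM), Hsp90aa1 (385, 356 and 394 against 367 and 393 FPKM) and Hsp90ab1 (-0.37) were not called, and the mitochondrial chaperone Hspd1 fell (373, 306 and 377 to 127 and 123 FPKM, Log2FC -1.48, SE 0.19, adjusted p = 0.000212). Of 20 endoplasmic reticulum and integrated stress genes 4 rose and 2 fell (median 0.08, -0.87 after rescaling), beside the same shares of all tested genes. Ddit3 (CHOP) went from 71.1, 125 and 69.0 to 652 and 586 FPKM (Log2FC 2.86, SE 0.24, adjusted p = 2.03e-05), and the phosphatase subunit Ppp1r15a (2.10), the autophagy receptor Sqstm1 (2.09) and Atf5 (1.97) rose. The reticulum chaperone Hspa5 was at 845, 852 and 852 FPKM in the controls and 918 and 901 FPKM in the LPS pair (0.10), and Calr, the most abundant member, was not called (0.47), while Xbp1 (-1.49) and Herpud1 (-1.47) fell.

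Nrf2, the product of Nfe2l2, induces antioxidant genes and is held down by Keap1. Of 23 tested Nrf2 target and glutathione genes 6 rose and 4 fell (median 0.27, -0.69 after rescaling). Among all tested genes 16.3% were higher and 17.9% lower. The iron storage subunits were the main rises, Fth1 from 6446, 9556 and 6454 to 89994 and 79755 FPKM (Log2FC 3.53, SE 0.18, adjusted p = 2.77e-06) and Ftl1 from 6584, 8459.8 and 6562 to 70207 and 68495 FPKM (Log2FC 3.28, SE 0.12, adjusted p = 9.45e-07). Together they held 2.32 to 3.04% of all FPKM in the controls, 14.1 and 13.1% in LPS libraries 1 and 3 and 3.18% in LPS library 2. Hmox1, which frees iron from haem, went from 179, 292 and 179 to 1492 and 1412 FPKM (Log2FC 2.78, SE 0.20, adjusted p = 1.05e-05), and the cystine importer Slc7a11 (2.57), Prdx1 (1.46) and Gstm1 (1.22) rose. The 4 that fell were Keap1 (37.1, 37.0 and 35.7 to 9.44 and 10.7 FPKM, Log2FC -1.82, SE 0.07, adjusted p = 1.31e-06), Gclc, the catalytic subunit of glutathione synthesis (-1.50), glutathione reductase Gsr (-1.15) and Pgd of the pentose phosphate pathway (-2.03). Nfe2l2 was at 61.0, 52.8 and 64.3 FPKM in the controls and 47.2 and 45.4 FPKM in the LPS pair (-0.35), Txnrd1 at 56.7, 49.6 and 57.9 and 53.8 and 58.1 FPKM (0.03), and neither was called. Nqo1, a textbook Nrf2 target, was at 0.0300, 0.195 and 0.0923 FPKM in the controls and 0.570 and 0.731 FPKM in the LPS pair (adjusted p = 0.0847).

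Genes of the phagocyte oxidase and superoxide handling rose in 5 of 10 cases with none lower (median 1.21, 0.22 after rescaling). They were Cybb (1.50) and Cyba (1.59), the membrane subunits, Rac2 (1.74), the mitochondrial dismutase Sod2 (60.9, 94.3 and 62.5 to 308 and 289.7 FPKM, Log2FC 2.06, SE 0.19, adjusted p = 3.31e-05) and the peroxiredoxin Prdx5 (102, 215 and 101 to 1753 and 1753 FPKM, Log2FC 3.74, SE 0.33, adjusted p = 2.8e-05). The cytosolic subunits Ncf1 (0.59) and Ncf4 (0.92) and the cytosolic dismutase Sod1 (0.09) were not called. Among 11 iron and metal genes 5 rose and 1 fell (median 0.63, -0.28 after rescaling). Hamp (hepcidin), better known from hepatocytes, went from 0.323, 0.177 and 0.339 to 51.2 and 40.7 FPKM (Log2FC 5.89, SE 0.36, adjusted p = 5.48e-06), with 0.526 FPKM in LPS library 2. The hepatocyte gene Alb was at 1.98, 2.76 and 1.09 FPKM in the controls and 5.46 and 2.79 FPKM in the LPS pair. The metal transporters Slc11a1 (1.78) and Slc11a2 (1.93) and the metallothioneins Mt1 (1.93) and Mt2 (1.77) rose, the transferrin receptor Tfrc fell (70.1, 46.9 and 72.9 to 27.4 and 28.0 FPKM, Log2FC -1.15, SE 0.26, adjusted p = 0.00466), and the iron exporter Slc40a1 was not called (-0.69).

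Of 22 tested glycolysis and Hif1a genes 5 rose and 5 fell, beside 16.3% higher and 17.9% lower among all tested genes (median 0.37, -0.61 after rescaling). The glucose carrier Slc2a1 went from 76.3, 83.1 and 75.9 to 371 and 381 FPKM (Log2FC 2.25, SE 0.09, adjusted p = 1.38e-06) and Pfkfb3, which makes the activator of phosphofructokinase, from 4.55, 5.63 and 4.91 to 53.1 and 54.3 FPKM (Log2FC 3.30, SE 0.29, adjusted p = 2.77e-05). The Hif1a target Vegfa (3.27), Aldoa (1.23) and Hk1 (1.02) rose. The phosphofructokinase subunit Pfkl (-1.73), Hk2 (-1.17), the lactate carriers Slc16a1 (-1.54) and Slc16a3 (-1.23) and Pdk1 (-2.11) fell. Pkm2, the pyruvate kinase, was not called (-0.59). Ldha was at 1155, 1151 and 1151 FPKM in the controls and 1231 and 1264 FPKM in the LPS pair (adjusted p = 0.174). Gapdh, often used as a reference gene, was at 777, 877 and 840.4 FPKM in the controls, 1253 and 1322 FPKM in the LPS pair and 834 FPKM in LPS library 2 (Log2FC 0.63, SE 0.09, adjusted p = 0.000393), and its Log2FC was -0.36 after rescaling to the same sum.

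The shares over all tested genes were 16.3% higher and 17.9% lower. Of 26 genes of the TCA cycle and mitochondrial fuel use none rose and 4 fell (median -0.30, -1.28 after rescaling). They were Idh3a (87.2, 78.5 and 87.3 to 24.5 and 25.1 FPKM, Log2FC -1.74, SE 0.10, adjusted p = 4.91e-06), the catalytic subunit of the cycle's isocitrate dehydrogenase, the cytosolic Idh1 (-1.61) and the carnitine transferases Cpt2 (-1.28) and Cpt1a (-1.02). The partner subunit Idh3b was at 0.84, opposite to Idh3a but under the fold threshold, and the abundant Mdh2 (0.57) and citrate synthase Cs (-0.07) were not called. Cholesterol genes fell in 5 of 23 cases and rose in 1 (median -0.52), beside 17.9% lower and 16.3% higher among all tested genes. Fdps went from 338, 197 and 329 to 80.9 and 87.6 FPKM (Log2FC -1.73, SE 0.28, adjusted p = 0.000727), and Idi1 (-1.43), Hmgcs1 (-1.40) and Mvk (-1.01) fell. Sc4mol was not called (0.07). In this list the controls disagreed, and with libraries 1 and 3 of each treatment averaged as 1 sample limma called 0 members. Control library 2 and LPS library 2 both lay below control libraries 1 and 3, for Fdps at 197 and 196 FPKM, and the median of the list in LPS library 2 was -0.47 relative to the control mean. Of 17 LXR target and lipid genes 4 rose and 4 fell, beside 16.3% higher and 17.9% lower among all tested genes (median 0.02, -0.96 after rescaling). The lipid droplet coat Plin2 (195, 318 and 184 to 1127 and 1187 FPKM, Log2FC 2.36, SE 0.26, adjusted p = 9.28e-05), the lysosomal sterol carrier Npc2 (2.65), Cd36 (1.52) and Pltp (1.37) rose. The lipogenic genes Scd1 (40.0, 22.0 and 39.8 to 6.08 and 5.34 FPKM, Log2FC -2.42, SE 0.28, adjusted p = 0.000119), Fasn (-2.04), Scd2 (-1.75) and Srebf1 (-1.15) fell, with control library 2 below the other controls in all but Srebf1.

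Lysosome genes rose in 14 of 22 cases and none fell (median 1.23, 0.24 after rescaling, 0.84 with all LPS libraries), and all 22 had a positive Log2FC. The cathepsin Ctsl went from 292, 387 and 288 to 3085 and 3114 FPKM (Log2FC 3.28, SE 0.14, adjusted p = 1.38e-06) and the proton pump subunit Atp6v0d2 from 6.16, 10.4 and 6.42 to 68.1 and 72.8 FPKM (Log2FC 3.16, SE 0.20, adjusted p = 6.21e-06). Psap (2.36), Ctsd (2.13) and Ctsb (1.80) rose from high levels, with Ctsd at 7328 and 7317 FPKM in the LPS pair. Of 25 proteasome genes 3 rose and 1 fell, beside 16.3% higher and 17.9% lower among all tested genes (median 0.01, -0.99 after rescaling). Those called were Psmb6 (1.70), Psmd11 (1.53) and Psma6 (1.23) against Psmc4 (-1.19). Psmb4, the most abundant member in the controls, was not called (0.01).

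Cytosolic ribosomal protein genes rose in 26 of 40 cases with none lower and all 40 positive (median 1.13, 0.14 after rescaling, 0.79 with all LPS libraries). Rplp1, the most abundant member, rose (1.25). Rps27 went from 3046, 3543 and 3014 to 9999.9 and 9537 FPKM (Log2FC 1.61, SE 0.08, adjusted p = 2.9e-06), Fau from 1317, 1469.5 and 1212 to 3982 and 3916 FPKM and Rps24 from 775, 894 and 766 to 2328 and 2387 FPKM. These are short transcripts, and length moved with the result. Genes with a longest transcript of up to 500 bases lay a median of 0.76 and 0.93 above the control mean in LPS libraries 1 and 3, and those of 500 to 1000 bases 0.69 and 0.70 above it. In genes of 3000 to 5000 bases the medians were -0.15 and -0.16, and LPS library 2 stayed between -0.08 and 0.09 in every length class. With the trend in length taken out of each library, 11 of the 40 ribosomal genes were called, all higher, with a median 0.67 above that of all genes in place of 1.15. Oxidative phosphorylation genes rose in 3 of 31 cases as deposited, beside 16.3% of all tested genes (Ndufa2 1.26, Ndufs3 1.05 and Ndufb3 1.00, with a median of 0.21, -0.78 after rescaling). With the trend in length taken out they had 0 calls in limma. The abundant Atp5b (0.13) and Cox4i1 (0.57) were not called in either. Under the same correction 30 of the 31 lowered mitosis genes, 28 of the 31 lowered replication genes and all 14 raised lysosome genes were still called, and the replication gene Pcna was called as well.

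**Figure D5:**
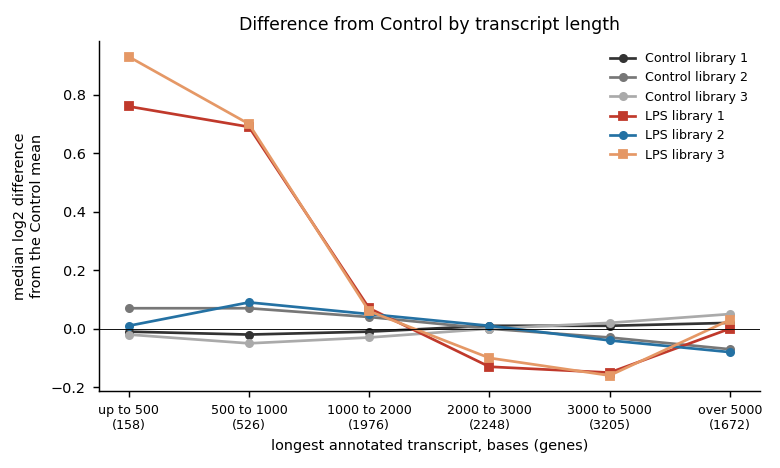
Median log2 difference from the control mean (vertical axis) for genes grouped by their longest annotated transcript (horizontal axis, number of genes in brackets), 1 line per library. LPS libraries 1 and 3 lie 0.69 to 0.93 above 0 for genes of up to 1000 bases and within 0.16 of 0 for longer ones, while the controls and LPS library 2 stay within 0.09 of 0 throughout.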

How the data were processed

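Total RNA-seq of RAW264.7 cells was analysed. Per the labels and the study's methods, the authors pseudoaligned reads with kallisto 0.45.0 to RefSeq transcripts of mm9, summed them to genes with tximport and generated FPKM values with DESeq2 1.20.0. Scaling by its size factors is an inference from the unequal FPKM sums of libraries of similar estimated depth. No counts were used here.

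Kept were genes whose FPKM averaged more than 1 across the 9 macrophage libraries. log2(FPKM + 0.5) was compared with limma 3.58.1 (R 4.3.3) in a fit of the control, LPS and LPS with MIC-1 libraries, with or without LPS library 2. With only control and LPS libraries in the fit, and without LPS library 2, 3389 genes were called. A fold change on this scale understates the change of low genes. Calls needed a Benjamini-Hochberg adjusted p below 0.01 and an absolute Log2FC above 1. In simulated data with 200 changed genes of 9905, tested for LPS libraries 1 and 3 against the controls, the fit recovered 79% at a true Log2FC of 1.5 and 98% at 3, and called 0 unchanged genes. The simulated share of changed genes was far below the 34.2% called in the data, so the recovery and the 0 false calls do not carry over to the 3386 calls. The simulated noise was also independent between genes and libraries. False calls from offsets that many genes of a library share, such as the length trend or the unequal FPKM sums, were therefore not examined.

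The gene lists and the members described were chosen with earlier results of these data known. The 12 largest Log2FC in each direction were named, leaving out small RNA genes and genes with Gm names. In each list the called members with the 3 largest changes, the 2 most abundant and any called member against the list's direction were named. Other members named were chosen after their values were seen. Alternatives were other scalings, minimum levels, pseudocounts and fold limits, a correction for transcript length, and leaving out each library. Promoters came from RefSeq (GRCm38.p6), whose coordinates differ from the mm9 positions of genes. The pictures were drawn with matplotlib 3.10.9. A few members of the lists are not reported here by name.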

Additional observations from a re-analysis of the deposited data

How the results depend on the processing

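Without LPS library 2, 3386 genes were called, 1610 higher and 1776 lower. With every library rescaled to the same FPKM sum, 497 were higher and 4577 lower, and without a minimum fold change 6344 were called, 3144 higher and 3200 lower. Under the other alternatives the counts stayed within 1.5 times those given, with 2712 calls when libraries 1 and 3 of each treatment were averaged as 1 sample and 3248 with the trend in transcript length removed. Of the 3386 calls, 2273 were kept with the same sum, 2679 with averaging and, of the 3343 with a length, 2938 with the length trend removed, and 0 turned to the opposite direction. Leaving out each library in turn gave 3229 to 3487 calls, 1505 to 1667 higher and 1703 to 1820 lower, where a lone LPS library was assumed to vary like the other groups.

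With all LPS libraries, limma called 0 genes under each alternative, and leaving out each library gave 0 to 3386 calls (0 to 1610 higher, 0 to 1776 lower), the upper values being those without LPS library 2. Of the 300 genes named, 243 were called and 0 of these changed sign with the same sum, whereas 35 of the 57 not called did. Among the called, 58 no longer passed with the same sum, 44 with averaging and 21 with the length trend removed. Leaving out 1 library at a time cost 26 of them their call in at least 1 fit, 20 without LPS library 1, 18 without LPS library 3, 15, 4 and 16 without control libraries 1, 2 and 3. With averaging 8 antimicrobial genes were higher and 1 lower, 7 and 1 CDK inhibitors and p53 targets, 4 and 0 heat shock genes, 3 and 1 endoplasmic reticulum genes, 4 and 0 iron genes and 3 and 2 LXR targets. With the length trend removed 10 antimicrobial genes were higher and 1 lower, 6 and 1 MHC class I genes, 9 and 1 CDK inhibitors and p53 targets and 2 and 3 cholesterol genes. No paired analysis was possible because the columns carry no replicate numbers. Counts behind the FPKM were not used, so depth limits single low genes to an unknown degree.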
